A study of Mus musculus with 31 samples.

Results

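The 40 genes described here encode proteins that copy the DNA or carry a cell through mitosis. They were chosen by name, as 19 genes whose products act at entry into and during S phase and 21 whose products act in G2 and mitosis (G2/M), out of 31053 gene symbols in each of 3 count tables. All 40 were present in all 3 tables, and all 40 passed the filter on low counts in each. S phase is the stretch of the cell cycle in which the genome is replicated: cyclin E and its kinase activate helicases that were loaded on the DNA in G1, and enzymes of nucleotide synthesis supply the building blocks. In G2 and mitosis cyclins A and B drive Cdk1, the spindle forms and the replicated chromosomes are pulled apart. In T cells the transcripts of these genes are known to rise after antigen stimulation, since an activated T cell divides rapidly, and to be low in resting cells.

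The libraries came from mouse Th17 cells, the interleukin 17-producing class of CD4 T cells, on the C57/B6 background. For the central nervous system (CNS) experiments, naive T cells with the transgenic 2D2 receptor, which recognises a myelin protein, were taken from mice with wild-type (WT) or conditionally deleted (cKO) Cyp11a1, or WT or cKO for the glucocorticoid receptor (GR), whose gene is Nr3c1. They were made into the type of Th17 cell labelled Th17Hom in culture and injected into Rag1 KO hosts, which lack T and B cells of their own. This caused experimental autoimmune encephalomyelitis, and 2000 2D2+ cells per library were sorted from brain and spinal cord at its peak. The in vitro experiment used WT cells of the type labelled Th17Inf, from spleen and draining lymph nodes (dLN), of which 2000 live cells were sorted per library after 2 days of treatment. Some cultures were untreated controls, and the others received dexamethasone (Dex), a synthetic glucocorticoid, or the cytokine TGF-β1, or the 2 together. There were 4 WT and 6 cKO libraries for Cyp11a1, 5 WT and 4 cKO libraries for GR, and 3 libraries in each of the 4 cultures. The sample labels write the cKO genotypes as KO, and the Cre driver is not given in the sources used here. The labels do not say which libraries came from separate animals or cultures, so the p-values measure the spread among these libraries, which may be technical.

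Library totals ran from 2769203 to 5623305 counts, and the 40 genes held 1517 to 14935 counts per library. Part of each total fell in predicted genes classed as repeat-like, 13 to 15 per table. These are genes named Gm and a number that held at least 0.2% of the counts in any library. Whether their reads came from repeats was not tested. The share of these genes ran from 15.4% to 38.97% in the Cyp11a1 experiment and from 11.7% to 30.8% in vitro. In the GR experiment it ran from 16.3% (WT replicate 1) to 55.7% (cKO replicate 1). The totals therefore overstate the depth left for other genes, by unequal amounts. The deletion of Cyp11a1 could not be checked, since Cyp11a1 had 0 counts in all 4 WT libraries and 4 counts in 1 of 6 cKO libraries. Nr3c1 ran from 13.0 to 18.8 CPM (counts scaled by library size, so that 1 CPM is 1 count in 1000000) in GR WT and from 6.76 to 10.2 CPM in GR cKO, with no overlap. All 18 T cell markers had counts in every library. Summed myeloid and microglial markers, of which the sorted cells should hold few, ran from 578 to 1554 CPM in the Cyp11a1 experiment, from 5479 to 25333 CPM in the GR experiment and from 93.7 to 141 CPM in vitro.

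Per kilobase of annotated exon, the level of the 40 transcripts differed widely. In Cyp11a1 cKO cells the highest were the small Cdk1-binding subunits Cks2 (115 CPM per kb) and Cks1b (90.02 CPM per kb). Next came Dut, the enzyme that keeps uracil out of DNA (54.97 CPM per kb), and Pcna, the sliding clamp of DNA polymerase (50.9 CPM per kb). The lowest were the kinetochore genes Cenpf (0.442 CPM per kb) and Cenpe (0.677 CPM per kb) and the proliferation marker Mki67 (1.71 CPM per kb). Annotated exons spanned 692 bases in Cks2 and 1126 in Cks1b, but 15433 in Cenpf, 8620 in Cenpe and 10061 in Mki67. This order therefore depends in part on the exon length used. The genes lie on 16 chromosomes. Exons of 11 of them overlap another annotated gene, in 10 cases on the opposite strand (Mcm7, Tk1, Gins2, Ccne2, Cdc45, Ccna2, Cdc20, Plk1, Ube2c and Nusap1). No strand-specific step is described for these libraries, so reads of those neighbours cannot be told apart there.

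Promoters of 6 members are shown because they hold the short motifs known for their phase. E2F sites are known from promoters of S phase genes. The cell cycle homology region (CHR) is known from those of G2/M genes, often beside a CCAAT box. RefSeq promoters on GRCm38, 250 bases before to 50 bases after the start, were at hand for 34 members. Letters searched on both strands were TTTGGCGC, TTTCGCGC or TTTCCCGC for E2F, TTTGAA for CHR, and CCAAT. Each stretch lies within the 250 bases before the start and is written 5′ to 3′ on the gene's strand, with matches on either strand in capitals. Neighbouring E2F matches overlap in Mcm5 and Mcm6 and form 1 run. Mcm5 (chr8:75109349-75109508, + strand) and Mcm6 (chr1:128359706-128359865, - strand) encode subunits of the replicative helicase. Cdk1 (chr10:69352939-69353072, - strand) is the mitotic kinase, Top2a (chr11:99024190-99024349, - strand) untangles DNA, Cdc20 (chr4:118437353-118437503, - strand) activates the ligase that ends mitosis, and Kif11 (chr19:37376222-37376381, + strand) is a spindle motor.
Mcm5: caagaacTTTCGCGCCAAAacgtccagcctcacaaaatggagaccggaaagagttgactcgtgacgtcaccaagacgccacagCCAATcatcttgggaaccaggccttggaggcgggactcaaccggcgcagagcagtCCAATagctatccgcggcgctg
Mcm6: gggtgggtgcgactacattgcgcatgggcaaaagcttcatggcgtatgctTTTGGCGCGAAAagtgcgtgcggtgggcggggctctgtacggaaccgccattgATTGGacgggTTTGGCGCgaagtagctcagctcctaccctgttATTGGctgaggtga
Cdk1: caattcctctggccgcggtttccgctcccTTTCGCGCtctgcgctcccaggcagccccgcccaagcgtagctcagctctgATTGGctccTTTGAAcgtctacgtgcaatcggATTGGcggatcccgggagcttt
Top2a: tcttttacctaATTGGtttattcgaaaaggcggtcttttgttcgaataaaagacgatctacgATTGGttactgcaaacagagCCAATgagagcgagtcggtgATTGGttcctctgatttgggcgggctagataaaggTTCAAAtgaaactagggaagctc
Cdc20: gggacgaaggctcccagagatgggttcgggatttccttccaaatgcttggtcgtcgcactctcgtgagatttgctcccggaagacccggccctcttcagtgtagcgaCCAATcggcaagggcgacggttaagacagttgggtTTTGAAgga
Kif11: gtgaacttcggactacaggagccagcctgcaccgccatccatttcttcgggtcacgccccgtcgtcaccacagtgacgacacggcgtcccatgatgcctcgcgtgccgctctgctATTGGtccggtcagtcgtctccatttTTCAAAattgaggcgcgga

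An E2F match was present in 7 of 16 S phase promoters (43.8%), in 1 of 18 G2/M promoters (5.56%), that of Cdk1, and in 2.12% of the promoters of all 27025 genes in the table. CHR letters were present in 2 of 16 S phase promoters (12.5%), 12 of 18 G2/M promoters (66.7%) and 20.2% of all. CCAAT was found in 10 of 16 (62.5%), 16 of 18 (88.9%) and 41.1%. All 12 G2/M promoters with CHR letters also held CCAAT, a pair present in 7.97% of all promoters. A match says only that these letters are in the window, and the motifs were chosen with the expression results known.

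**Figure D1:**
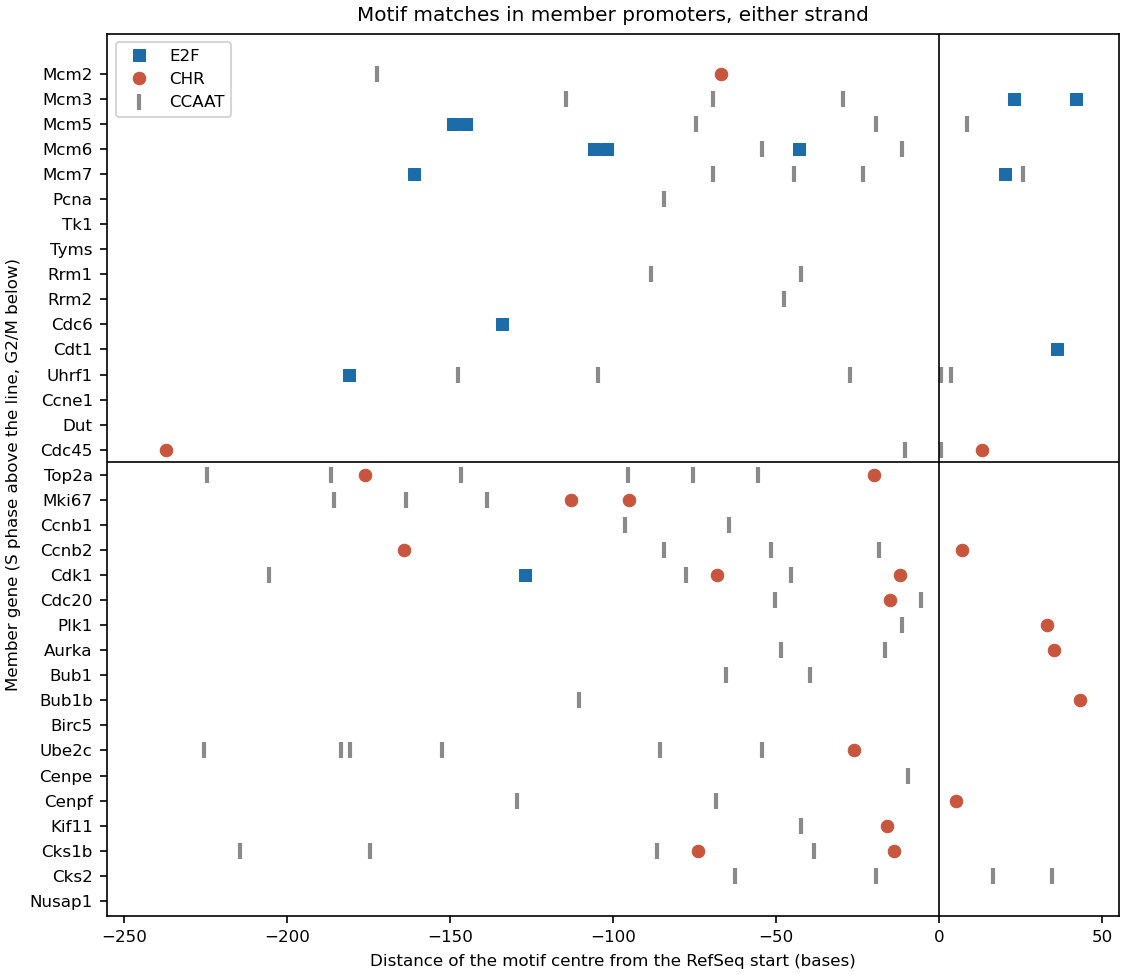
Positions of the searched motifs in 34 member promoters, plotted as the distance of each match's centre from the RefSeq start in bases, with S phase genes above the line and G2/M genes below. Squares are E2F matches (7 of 16 S phase genes, 1 of 18 G2/M genes), circles CHR (2 and 12 genes) and bars CCAAT (10 and 16 genes).

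The GR comparison asks what the glucocorticoid receptor does in Th17 cells of the inflamed CNS. All 40 cell cycle genes had a lower fitted level in GR cKO than in WT, where 50.2% of all genes did, but none of the differences passed the adjusted threshold. The median log2 fold change was -0.998 over the S phase genes and -1.27 over the G2/M genes, against 0.00 over all 10597 genes tested. In edgeR 0 of 40 passed the adjusted threshold of 0.05, as did 0 of all genes (0%), and DESeq2 also called 0 of the 40. At an unadjusted p below 0.05 edgeR counted 12 S phase and 4 G2/M genes, all of them lower, where 4.74% of all genes were (8.21% in either direction). No member separated the groups, which 2.25% of all genes did.

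Libraries of 1 genotype differed widely. Summed over the 19 S phase genes, WT replicates 1 to 5 stood at 481, 921, 1435, 1308 and 364 CPM, and cKO replicates 1 to 4 at 445, 741, 312 and 311 CPM. Summed over the 21 G2/M genes, the same libraries stood at 336, 857, 1230.3, 1168 and 168 CPM in WT and at 304, 689.6, 127 and 117 CPM in cKO. WT replicates 1 and 5 thus lay among the cKO libraries, and cKO replicate 2 lay between the low and the high WT libraries. From the lowest to the highest WT library the S phase sum differed 3.95-fold and the G2/M sum 7.31-fold, against 2.38-fold and 5.90-fold among cKO libraries. G2/M genes therefore spread more widely than S phase genes in both genotypes.

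**Figure D2:**
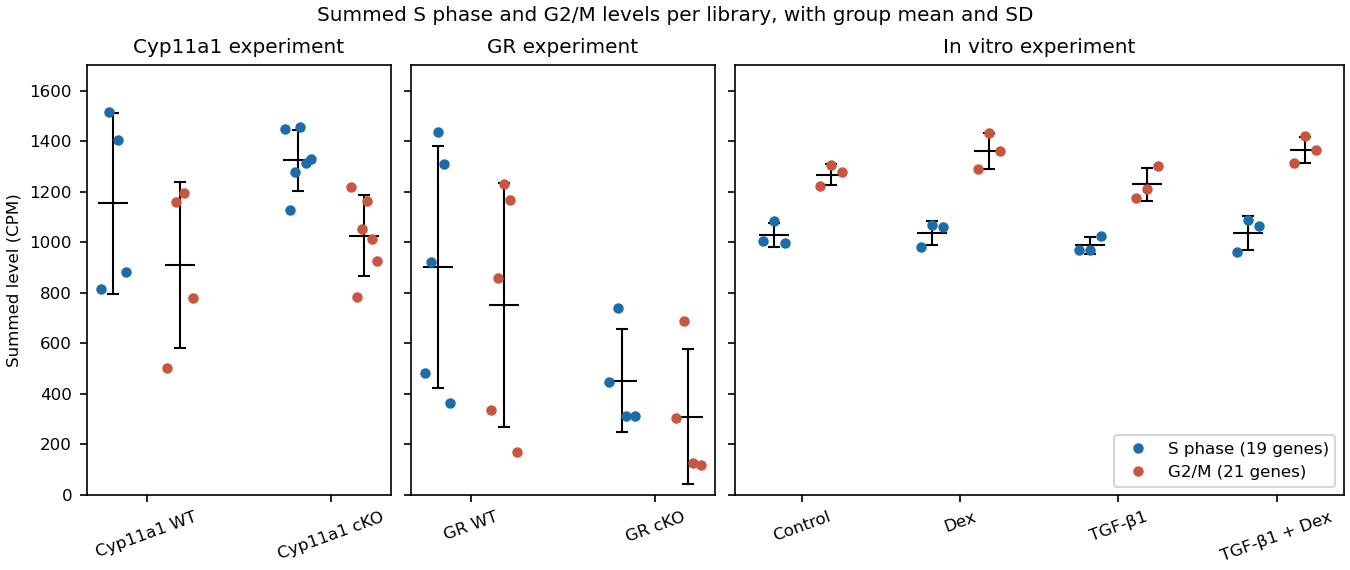
Summed levels (CPM, axis from 0) of the 19 S phase genes (blue) and the 21 G2/M genes (red) in each library, with the group mean and SD in black. GR libraries ran from 311 to 1435 CPM for S phase and from 117 to 1230.3 CPM for G2/M, while the 12 cultures stayed within 962 to 1087 and 1176 to 1431 CPM.

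The ratio of the S phase sum to the G2/M sum reflects the wider spread of the G2/M genes. S phase genes summed to 1.07 to 1.46 times the G2/M sum in 6 GR libraries, but to 2.16 times in WT replicate 5, 2.46 times in cKO replicate 3 and 2.66 times in cKO replicate 4. Those 3 are the libraries with the lowest G2/M sums. That sum is the divisor of the ratio, so the high ratios are not a separate result.

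Among the genes that load and start the helicase, Mcm5 was at 35.7, 68.9, 125, 112 and 24.9 CPM in WT and 32.9, 56.7, 16.2 and 18.1 CPM in cKO, a log2 fold change of -1.24 ± 0.51 (SE). Mcm2, another helicase subunit, was at 29.2, 46.4, 78.6, 72.7 and 22.4 CPM in WT and 25.98, 40.2, 19.5 and 16.8 CPM in cKO (-0.96 ± 0.39). In both, WT replicates 3 and 4 were highest, cKO replicates 3 and 4 were lowest, and the groups overlapped through WT replicates 1 and 5. Cdt1, which recruits the helicase, was at 16.3, 38.7, 39.7, 32.5 and 15.4 CPM in WT and 15.3, 18.8, 21.4 and 11.98 CPM in cKO (-0.75 ± 0.31). Gins2, a part of the active helicase, had the smallest p of the 40, with 16.9, 24.9, 47.7, 34.03 and 7.36 CPM in WT and 11.3, 12.4, 5.22 and 9.05 CPM in cKO. Its log2 fold change was -1.49 ± 0.45 (edgeR adjusted p = 0.58). Only WT replicate 5 lay within the cKO range of Gins2 (chr8:120578633-120589304 on GRCm38), whose reads cannot be told apart from those of Gse1 where their exons overlap.

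Pcna was at 41.9, 78.4, 116, 101 and 38.9 CPM in WT and 43.5, 66.6, 34.6 and 34.9 CPM in cKO (-0.74 ± 0.34). Tk1, a kinase of the thymidine salvage route, was at 26.6, 43.97, 75.3, 56.8 and 19.6 CPM in WT and 15.97, 35.8, 12.8 and 13.6 CPM in cKO (-1.17 ± 0.42, edgeR adjusted p = 0.58). Both overlapped between the genotypes, Tk1 through cKO replicate 2. The other nucleotide genes had log2 fold changes of -0.95 (Tyms, thymidylate synthase), -0.92 and -1.38 (Rrm1 and Rrm2, the ribonucleotide reductase subunits) and -0.998 (Dut).

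Ccne1 and Ccne2 encode the cyclins E, which push cells from G1 into S phase. Ccne1 was at 5.62, 16.2, 23.7, 28.9 and 5.26 CPM in WT and 9.39, 11.4, 2.70 and 3.19 CPM in cKO (-1.26 ± 0.58). Ccne2 was at 1.09, 6.89, 10.4, 9.98 and 3.15 CPM in WT and 3.13, 2.47, 2.90 and 3.99 CPM in cKO (-1.04 ± 0.53). For Ccne2 the lowest library was WT replicate 1, and all 4 cKO libraries lay between it and WT replicate 2. Uhrf1, which maintains DNA methylation behind the fork, had a log2 fold change of -1.26, Cdc6, a helicase loader, -1.40 and Cdc45, a helicase component, -1.41. The smallest S phase difference was in Mcm6, at -0.72.

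Among the G2/M genes, the B-type cyclin gene Ccnb1 was at 11.96, 50.9, 80.9, 67.04 and 7.71 CPM in WT and 17.2, 40.6, 9.27 and 3.99 CPM in cKO (-1.27 ± 0.74). Cdc20 was at 23.01, 47.2, 72.3, 61.4 and 10.9 CPM in WT and 22.9, 39.6, 4.06 and 4.79 CPM in cKO (-1.26 ± 0.68). The kinase gene Plk1 was at 7.97, 26.95, 44.3, 35.8 and 4.91 CPM in WT and 5.95, 18.5, 4.06 and 1.60 CPM in cKO, the most negative log2 fold change of the 40, -1.61 ± 0.71 (edgeR adjusted p = 0.58). In these 3 genes the high libraries were WT replicates 2, 3 and 4, with cKO replicate 2 next below them.

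Top2a was at 28.3, 67.9, 88.5, 76.5 and 14.02 CPM in WT and 26.6, 49.6, 10.8 and 11.98 CPM in cKO (-1.14 ± 0.57). Mki67 was at 9.60, 21.3, 23.9, 23.3 and 4.91 CPM in WT and 8.45, 14.7, 5.22 and 4.26 CPM in cKO (-1.01 ± 0.47). Each kept the order of the summed levels at its top, with WT replicates 3, 4 and 2 followed by cKO replicate 2. Bub1, a checkpoint kinase of the kinetochore, was at 3.44, 11.8, 15.6, 17.9 and 4.21 CPM in WT and 4.38, 8.08, 3.48 and 1.60 CPM in cKO (-1.23 ± 0.54). Cenpf was at 6.34, 4.66, 11.1, 7.93 and 2.10 CPM in WT and 2.50, 5.44, 1.16 and 0.532 CPM in cKO (-1.36 ± 0.57), with cKO replicates 1 and 2 inside the WT range. Without cKO replicate 2 the log2 fold changes were -2.66 for Plk1, -2.27 for Cenpf, -2.14 for Ccnb1, -2.10 for Cdc20 and -1.77 for Top2a. That library was the highest cKO library in each of these genes, so lower values follow from leaving it out. The least negative values with 1 library left out were -1.26, -1.07, -0.93, -0.91 and -0.88 in the same order.

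The other G2/M genes had log2 fold changes from -1.49 in Ccna2, the gene of cyclin A2, to -0.82 in Cenpe, a kinetochore motor. Cenpe had 0 counts in cKO replicate 4, which allows up to 0.799 CPM, and 1 count in WT replicate 5. The aurora kinase genes Aurka and Aurkb were at -1.37 and -1.27, the ubiquitin-conjugating Ube2c at -1.41, the spindle genes Kif11, Tpx2 and Nusap1 at -1.41, -1.19 and -1.24, and Birc5, a subunit of the aurora B complex, at -1.27. The order of the libraries was much the same in most members. WT replicate 5 was the lowest WT library for 18 of 19 S phase and 19 of 21 G2/M genes, and cKO replicate 2 the highest cKO library for 17 and 20.

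**Figure D3:**
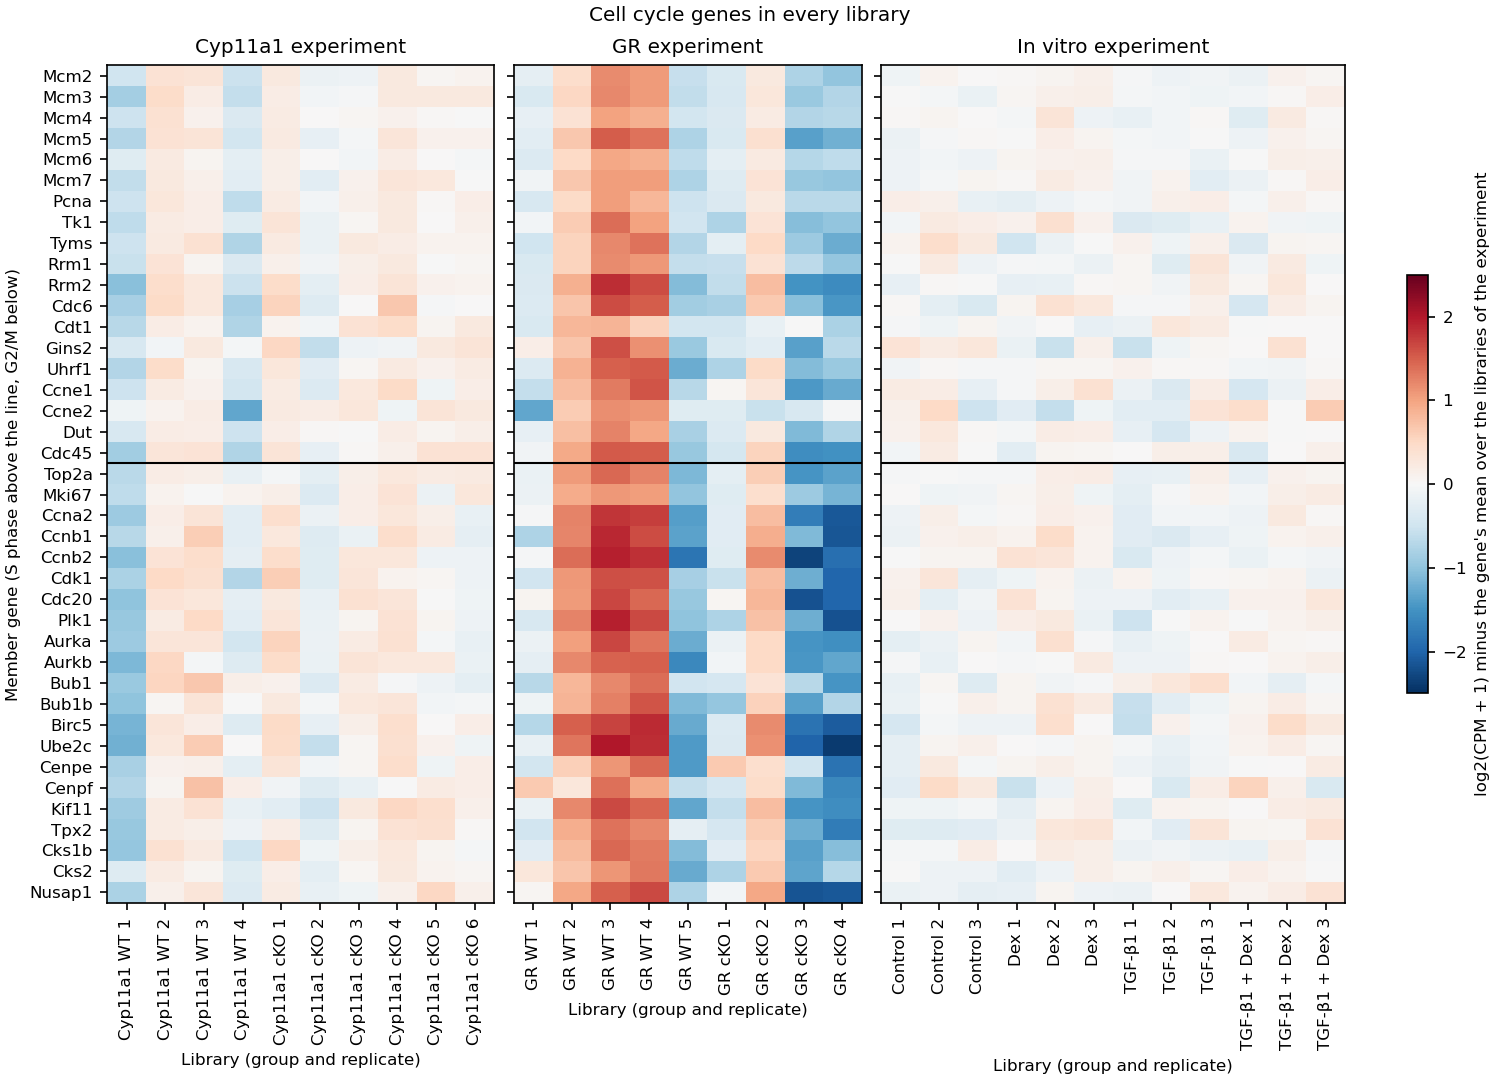
Heat map of log2(CPM + 1) of each member in each library, minus the gene's mean over the libraries of its experiment (red above, blue below, colours capped at 2.5 on either side). Columns of the GR experiment are red (WT 2 to 4 and cKO 2) or blue in most genes of both phases, WT 1 and 4 are blue in most genes of the Cyp11a1 experiment, and the cultures are pale.

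Libraries with low cell cycle sums had high sums of myeloid markers, which were 21057, 10900.3, 5479, 7076 and 24340.0 CPM in WT replicates 1 to 5 and 19105, 12553, 25333 and 24529 CPM in cKO replicates 1 to 4. All 22 markers on that list had counts in every GR library. The 4 libraries at or under 12553 CPM, which are 3 WT and 1 cKO, had the 4 highest sums of both phases. For 35 of the 40 members each of these 4 libraries lay above each of the other 5, the exceptions being Cdt1, Gins2, Ccne2, Cenpe and Cenpf. Myeloid sums overlapped between the genotypes (exact two-sided permutation p = 0.183, adjusted over 7 lists 0.413, n = 5 and 4). Neural and glial markers summed to 43.4 to 58.1 CPM in cKO and 31.9 to 46.97 CPM in WT (exact two-sided permutation p = 0.0238, adjusted 0.167), and neutrophil markers to 47.5 to 66.3 CPM and 22.1 to 58.9 CPM (exact two-sided permutation p = 0.0635, adjusted 0.222). The highest levels in these lists were those of Mbp (22.8 to 34.5 CPM) and Slc1a3 (3.84 to 16.0 CPM), and of Csf3r (17.3 to 55.4 CPM). Mog stayed at 0 CPM and Ly6g at 0.193 CPM or less, and Mbp was at 15.0 to 21.7 CPM in the cultures. Slc1a3, however, was at 0.70 CPM or less in the cultures, and S100a8 reached 12.0 CPM in GR libraries but stayed at 0 CPM in the cultures. Members of these lists thus differed, and whether the sums measure neural cells or neutrophils was not tested. The summed T cell markers were steadier, 16697 to 22319 CPM, but most of that sum was Trbc2 alone (11836 to 15672 CPM). The part of these cells in the member values was not tested beyond the fits that follow, and in bulk RNA fewer cells of a type and less RNA per cell cannot be told apart.

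With the myeloid sum as a covariate the medians were -0.15 over the S phase genes and -0.20 over the G2/M genes, and 18 of 19 and 18 of 21 were negative. Before this adjustment the library mean log2 levels had pooled SDs within genotypes of 0.754 and 1.13. Most members follow the same order of libraries, so these sign counts are not independent. Without the 4 libraries above 20000 CPM, a choice made after seeing the data, the medians were -1.08 and -1.07, with 0 genes of the 40 past the threshold. That fit set 3 WT libraries at 10900.3 CPM or less against cKO replicates 1 and 2, and replicate 1, at 19105 CPM, is among the 5 libraries with the high myeloid sums, so it does not compare the genotypes at like myeloid sums. With libraries scaled by the T cell markers, also chosen later, they were -1.12 and -1.42. Without cKO replicate 2 the G2/M median was -2.10, and without WT replicate 3 the S phase median was -0.77. Each of these libraries had the highest sum of its genotype for that phase, so the direction of the shift follows from leaving it out.

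**Figure D4:**
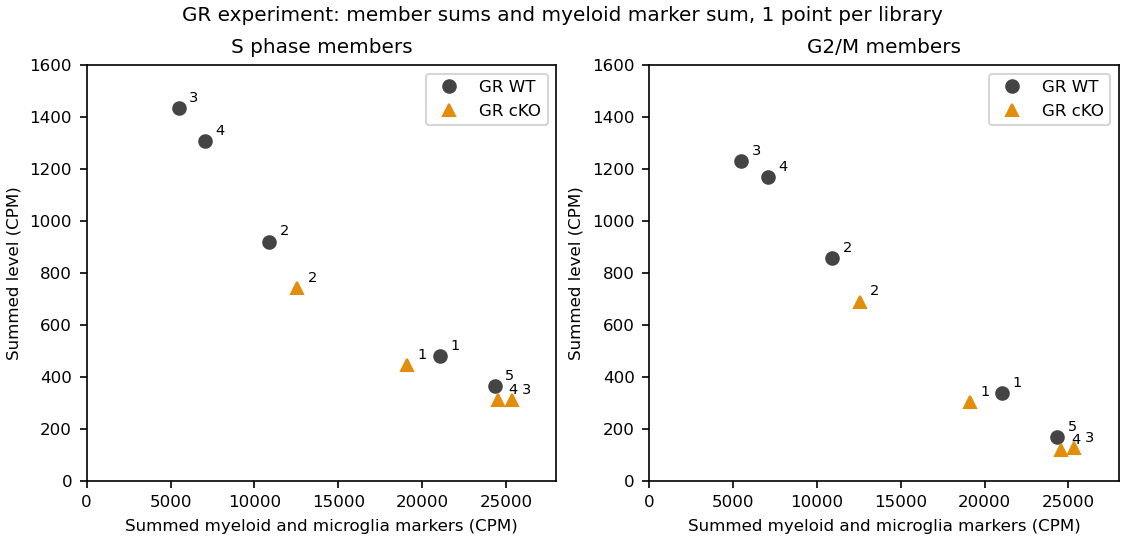
Summed S phase (left) and G2/M (right) levels in CPM against the summed myeloid and microglial markers in CPM, 1 point per GR library, numbered by replicate. The 5 libraries at 19105 CPM or more, which are WT 1 and 5 and cKO 1, 3 and 4, have the lowest sums, and the 4 at 12553 CPM or less the highest.

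Other genes of replication, mitosis and the DNA damage checkpoint mostly had the same sign in GR cKO. They were measured in the same libraries as the members, so their signs are not independent of those above. The values that follow are without the myeloid covariate. Of 33 tested further replication genes 33 were negative (median -0.65), of 42 further mitosis genes 42 (median -1.09), and of 22 DNA damage and checkpoint genes 20 (median -0.78). G1 cyclin, kinase and E2F-Rb genes were mixed, 16 of 23 negative with a median of -0.31. Among inhibitors of cyclin-dependent kinases and antiproliferative genes 8 of 15 were positive. In edgeR 0 genes of these 5 lists passed, and of the 135 genes tested 40 had an unadjusted p below 0.05 in the lower direction (29.6%, against 4.74% of all genes) and 1 in the higher direction. Cdkn1a (p21) and Cdkn1b (p27), which restrain the cyclin kinases, had log2 fold changes of -0.28 ± 0.23 and 0.23 ± 0.16. Myc, a growth regulator, was at -0.58 ± 0.31 and E2f1, an S phase transcription factor, at 0.35 ± 0.30.

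The Cyp11a1 comparison asks what loss of the enzyme that turns cholesterol into pregnenolone does in the same setting. All 19 S phase genes and 19 of 21 G2/M genes had a higher fitted level in cKO, against 50.5% of all genes, with medians of 0.21 and 0.20 against 0.00 over all 10125 genes. None passed: edgeR called 0 of 40, with 0.178% of all genes called, and DESeq2 called 0. Cdt1 was the only member with an unadjusted p below 0.05 in edgeR, where 8% of all genes had one. No member separated the groups (1.97% of all genes did).

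The widest spread was among the WT libraries. The S phase sum was 814, 1514, 1404 and 881 CPM in WT replicates 1 to 4, and 1129 to 1454 CPM in the 6 cKO libraries. The G2/M sum was 503, 1158, 1194 and 781 CPM in WT and 783 to 1220.3 CPM in cKO. WT replicates 1 and 4 were the lowest of the experiment in both phases, while WT replicates 2 and 3 lay within or above the cKO range. Replicate 1 was the lowest WT library for all 21 G2/M genes and for 12 of 19 S phase genes, and replicate 4 for the other 7. In cKO, replicate 2 was lowest for 15 S phase and 17 G2/M genes. Without WT replicates 1 and 4 the medians were -0.13 and -0.14. These 2 libraries were picked for their low sums of the same genes, so a lower difference follows from the choice. Leaving out WT replicate 1 alone gave 0.06 and 0.03.

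Cdt1 was at 18.4, 34.7, 32.01 and 17.5 CPM in WT replicates 1 to 4, and in cKO at 28.9 at the lowest, 34.1 at the median and 42.1 CPM at the highest (0.44 ± 0.19, edgeR adjusted p = 0.582). Pcna was at 78.5, 137, 126 and 72.3 CPM in WT, and in cKO at 107 at the lowest, 124 at the median and 132 CPM at the highest (0.24 ± 0.16). Mcm5 was at 52.5, 112, 109 and 63.3 CPM in WT, and in cKO at 76.2 at the lowest, 94.7 at the median and 108 CPM at the highest (0.15 ± 0.19). In all 3 the low WT libraries 1 and 4 lay below every cKO library and WT libraries 2 and 3 lay within its range or above it. Ccne1 was at 13.3, 22.7, 20.9 and 13.8 CPM in WT, and in cKO at 15.2 at the lowest, 22.3 at the median and 27.3 CPM at the highest (0.27 ± 0.19). Ccne2 was at 7.41, 8.52, 9.22 and 2.65 CPM in WT, and in cKO at 7.34 at the lowest, 9.62 at the median and 10.2 CPM at the highest (0.39 ± 0.25). WT replicate 4 lay below all other libraries in Ccne2. Dut had a log2 fold change of 0.21 ± 0.13.

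Mki67 was at 9.95, 17.2, 16.00 and 17.2 CPM in WT, and in cKO at 12.5 at the lowest, 17.9 at the median and 20.7 CPM at the highest (0.20 ± 0.18). Top2a was at 37.5, 68.3, 66.5 and 52.7 CPM in WT, and in cKO at 50.5 at the lowest, 68.2 at the median and 72.8 CPM at the highest (0.20 ± 0.16). WT replicate 1 stood apart in Mki67, below all 9 other libraries, and was lowest in Top2a as well. Ccnb1 was at 30.9, 55.2, 77.9 and 41.6 CPM in WT, and in cKO at 40.2 at the lowest, 51.3 at the median and 68.1 CPM at the highest (0.02 ± 0.23). Cdc20 was at 26.2, 67.96, 65.9 and 45.6 CPM in WT, and in cKO at 47.3 at the lowest, 58.3 at the median and 70.5 CPM at the highest (0.18 ± 0.22). In both genes WT replicate 1 was lowest of all, and the highest WT library exceeded the cKO median. The 2 members with negative values were Bub1 (-0.32 ± 0.26) and Cenpf (-0.21 ± 0.26), and the largest positive G2/M values were in Cenpe (0.36 ± 0.23) and Birc5 (0.34 ± 0.24). Without WT replicate 1 the values were 0.16 for Cenpe, 0.11 for Birc5, 0.043 for Mki67, 0.050 for Top2a, -0.16 for Ccnb1 and -0.04 for Cdc20. Replicate 1 was the lowest WT library in each of these genes, so lower values follow from leaving it out.

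No marker list passed an adjusted threshold of 0.05. Myeloid markers summed to 807 to 1554 CPM in Cyp11a1 cKO and 578 to 829 CPM in WT (exact two-sided permutation p = 0.0286, adjusted over 7 lists 0.0778, n = 6 and 4). With the myeloid sum as a covariate the member medians were 0.52 and 0.62. Th17 markers summed to 159 to 274 CPM in cKO and 268 to 361 CPM in WT (exact two-sided permutation p = 0.0143, adjusted 0.0778). Markers of NK and CD8 T cells summed to 199.9 to 483 CPM and 77.4 to 330.0 CPM (exact two-sided permutation p = 0.0333, adjusted 0.0778). Gzma had the highest level of that list, 33.4 to 386 CPM. Klrd1 was at 10.3 to 62.3 CPM and Cd8b1 at 15.0 to 23.0 CPM, while Cd8a stayed at 1.48 CPM or less and Ncr1 at 0.679 CPM or less. Whether this sum measures NK or CD8 T cells was not tested. No gene of the 5 other lists passed in edgeR, and of the 138 genes tested 5 had an unadjusted p below 0.05 (3.62%, against 8% of all genes), 3 in the higher and 2 in the lower direction. Cdkn1a did not overlap between the groups, 73.4 ± 9.90 CPM in cKO against 53.7 ± 6.25 CPM in WT (SD, n = 6 and 4), at 0.45 ± 0.12 (edgeR adjusted p = 0.21). Cdkn1b was at -0.09 ± 0.18, Myc at 0.18 ± 0.22 and E2f1 at 0.11 ± 0.23.

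**Figure D5:**
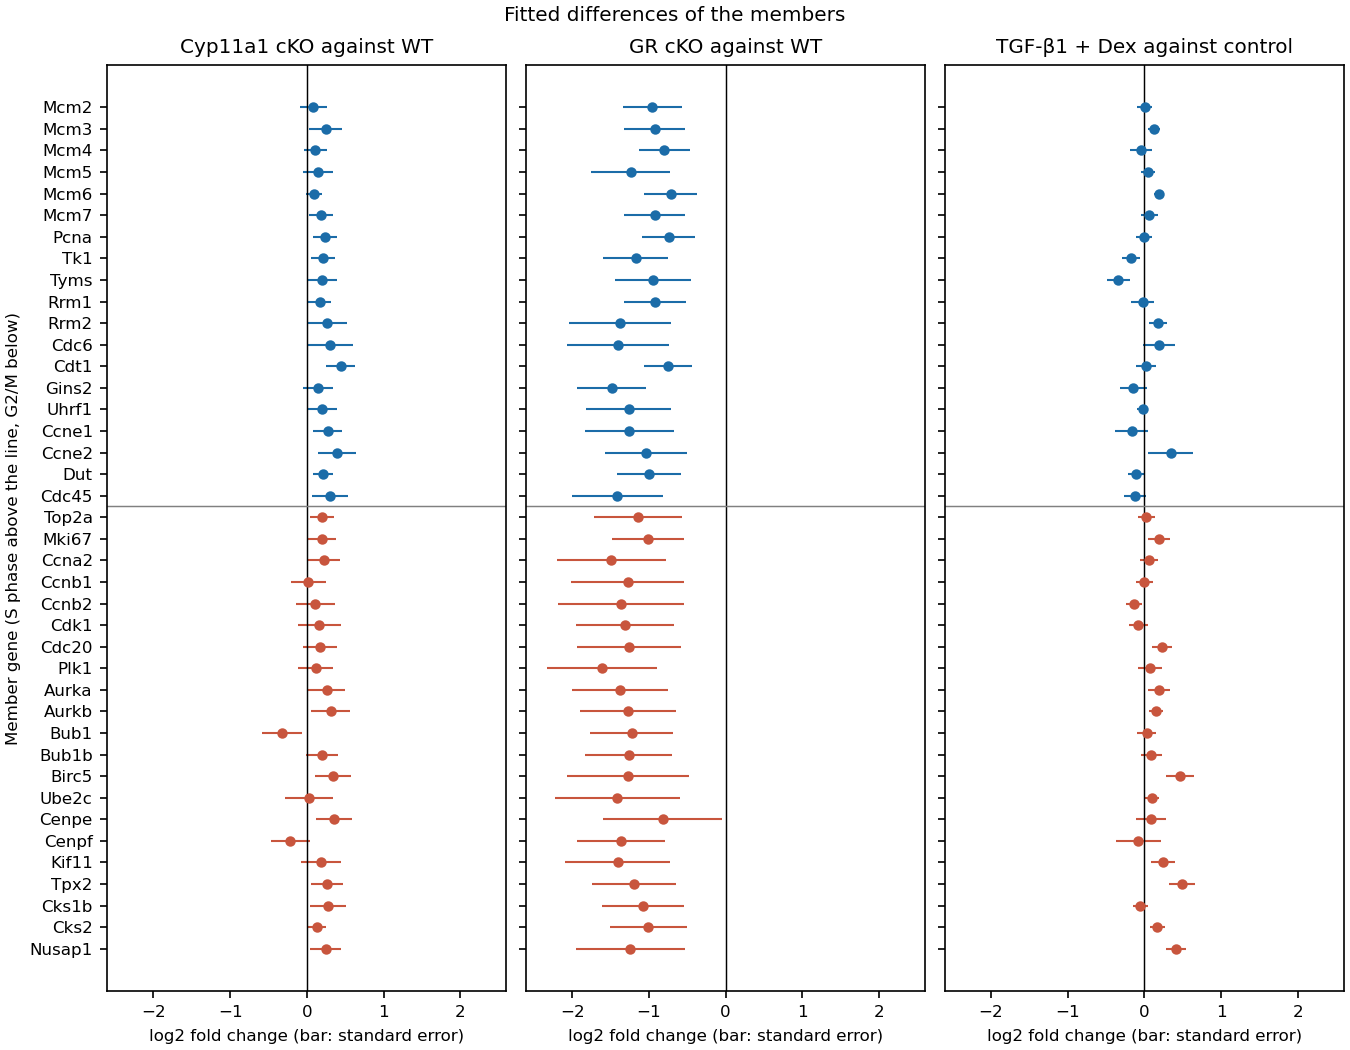
Fitted log2 fold change of each member with its standard error (bars) in 3 comparisons, S phase genes in blue above the line and G2/M genes in red below. GR cKO values run from -1.61 to -0.72, Cyp11a1 values from -0.32 to 0.44, and those of the combined treatment against control from -0.34 to 0.50.

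The in vitro experiment asks how Dex and TGF-β1, alone and combined, act on Th17Inf cells. Cell cycle transcripts were nearly level over the 12 cultures. The S phase sum was 1006, 1082 and 999 CPM in controls, 981, 1067 and 1062 CPM with Dex, 968, 969 and 1025 CPM with TGF-β1, and 962, 1087 and 1063 CPM with both. The G2/M sum was 1221, 1305 and 1277 CPM in controls, 1289.6, 1431 and 1360.2 CPM with Dex, 1176, 1211 and 1302 CPM with TGF-β1, and 1313, 1418 and 1363 CPM with both. G2/M sums with both agents lay above all 3 controls, and the S phase sums of all 4 groups overlapped. S phase genes summed to less than the G2/M genes in every culture, from 0.733 times, set beside 1.07 to 2.66 times in the CNS libraries. The 2 kinds of cell come from separately scaled tables, and this was not tested.

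In edgeR 0 of 40 members passed in any of the 6 in vitro comparisons. All genes were called at 1.83% for Dex, 3.29% for TGF-β1 and 6.25% for both against control, 0.532% for both against TGF-β1, 2.62% for both against Dex and 0% for the interaction of the 2 agents. DESeq2 also called 0 members in each. At an unadjusted p below 0.05 the members numbered 6 for Dex (13.2% of all genes), 5 for TGF-β1 (15%) and 5 for both (18.8%) against control. They numbered 8 for both against TGF-β1 (9.85%), 4 for both against Dex (13%) and 2 for the interaction (5.34%). The 3 comparisons with control share its 3 libraries, and those with the single agents share the combined libraries.

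With Dex the median log2 fold change was 0.03 over the S phase genes and 0.12 over the G2/M genes, 19 of 21 of them positive (50.4% of all genes). Tyms was at 41.6, 52.9 and 46.5 CPM in controls and 27.2, 35.3 and 38.7 CPM with Dex (-0.48 ± 0.15, edgeR adjusted p = 0.158). Mcm6 was at 126, 131 and 125 and 143, 147 and 151 CPM (0.21 ± 0.07). Gins2 was at 46.2, 41.7 and 44.1 and 32.1, 24.1 and 39.3 CPM (-0.47 ± 0.18). In these 3 the groups did not overlap, Tyms and Gins2 being lower and Mcm6 higher with Dex. Altogether 7 members did not overlap, against 19.3% of all genes. Tpx2, a spindle assembly factor, was at 30.1, 29.4 and 30.2 and 33.3, 45.2 and 46.5 CPM (0.48 ± 0.17), and Ccnb2, another B-type cyclin gene, at 0.22 ± 0.10. Bub1b, a checkpoint gene, was at 0.25 ± 0.14 and overlapped.

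With TGF-β1 the medians were 0.00 and -0.08. Dut was at 75.6, 84.5 and 71.3 CPM in controls and 60.8, 52.6 and 63.9 CPM with TGF-β1 (-0.39 ± 0.10, edgeR adjusted p = 0.0635). Tk1 was at 41.6, 51.2 and 49.2 and 33.6, 34.98 and 38.1 CPM (-0.41 ± 0.12, edgeR adjusted p = 0.0938). Gins2 was at 24.2, 33.2 and 37.2 CPM with TGF-β1 (-0.47 ± 0.18). All 3 lay below every control library, as 10.4% of all genes did. Bub1 was at 28.3, 33.5 and 25.6 and 35.9, 39.3 and 43.6 CPM (0.45 ± 0.12, edgeR adjusted p = 0.076), above every control library. Without control replicate 2 it passed, at an edgeR adjusted p of 0.0438, the one call of a member when a library was left out. Ccnb1 was at 71.7, 84.8 and 87.1 and 64.6, 61.6 and 68.4 CPM (-0.33 ± 0.12), below every control. The checkpoint genes Bub1 and Bub1b (-0.30 ± 0.14) thus had values of opposite sign.

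With both agents against control the medians were 0.00 and 0.09, and 17 of 21 G2/M genes were positive (50.2% of all genes). Nusap1, a microtubule-binding spindle gene, was at 29.7, 30.5 and 28.5 CPM in controls and 35.7, 38.5 and 43.4 CPM with both (0.41 ± 0.13, edgeR adjusted p = 0.0791). Tpx2 was at 39.1, 38.5 and 48.01 CPM with both (0.50 ± 0.17) and Birc5 at 52.5, 67.9 and 64.02 and 75.5, 96.9 and 83.2 CPM (0.46 ± 0.18). All 3 lay above every control. Of the S phase genes, Mcm6 was at 135, 151 and 151 CPM with both (0.19 ± 0.07), above the controls, and Tyms at 30.3, 40.9 and 40.01 CPM (-0.34 ± 0.15), below them. In all 8 members did not overlap with control, against 23.6% of all genes.

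Against TGF-β1 alone, cultures with both agents had 18 of 21 positive G2/M values (49.3% of all genes) and a median of 0.18. Bub1 was at 35.9, 39.3 and 43.6 CPM with TGF-β1 and 30.6, 27.3 and 31.2 CPM with both (-0.41 ± 0.12), and did not overlap. Ccnb1 was at 73.8, 83.9 and 86.1 CPM with both (0.33 ± 0.12). Cdc20 was at 60.8, 54.9 and 57.8 and 71.1, 71.00 and 80.4 CPM (0.36 ± 0.13). Both lay above every TGF-β1 library, and Dut (0.28 ± 0.10) and Mcm6 (0.17 ± 0.07) did too. In all, 10 of 40 members, 3 of S phase and 7 of G2/M, lay above every TGF-β1 library, as did 7.12% of all genes. The lower direction held 2 more, which makes 12 without overlap, against 15.2% of all genes. Against Dex alone, Ccnb2 was at 72.2, 69.5 and 59.5 CPM with Dex and 49.99, 54.6 and 53.1 CPM with both (-0.35 ± 0.10, edgeR adjusted p = 0.114). Ccne2 was at 7.10, 5.47 and 8.13 and 12.2, 8.74 and 14.3 CPM (0.80 ± 0.31), the 2 groups not overlapping in either gene.

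For the interaction of Dex and TGF-β1, a difference of differences, the smallest p-values were those of Bub1 (-0.54 ± 0.18, edgeR adjusted p = 0.763) and Gins2 (0.80 ± 0.26, edgeR adjusted p = 0.766). Neither passed the adjusted threshold.

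Other members were followed in all 4 kinds of culture. Mcm5 was at 59.1, 64.3 and 67.2 CPM in controls, 65.1, 73.3 and 68.6 CPM with Dex, 63.1, 62.2 and 65.4 CPM with TGF-β1 and 59.9, 70.7 and 67.4 CPM with both. Pcna was at 92.02, 90.2 and 72.1, 68.8, 74.7 and 79.3, 77.4, 90.2 and 92.00 and 79.9, 89.5 and 84.2 CPM in the same order. Cdt1 was at 25.9, 24.5 and 27.8, 25.00, 26.5 and 22.8, 23.8, 32.4 and 30.6 and 26.2, 26.6 and 26.7 CPM. With both agents these 3 had log2 fold changes against control of 0.05 ± 0.09, 0.00 ± 0.11 and 0.02 ± 0.13. Ccne1 was at 16.8, 16.6 and 12.4, 14.2, 16.1 and 19.2, 12.8, 10.99 and 16.6 and 10.5, 12.9 and 16.4 CPM (-0.17 ± 0.21). Mki67 was at 15.4, 14.2 and 14.4, 16.05, 17.2 and 14.3, 12.8, 15.03 and 16.3 and 14.6, 17.1 and 17.9 CPM. Top2a was at 87.5, 89.1 and 87.1, 87.9, 101 and 102, 77.4, 78.9 and 99.6 and 77.9, 96.2 and 94.1 CPM. Ccne1 overlapped between the combined cultures and the controls, and so did Mki67 (0.19 ± 0.14) and Top2a (0.03 ± 0.11).

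A few further cell cycle genes passed in vitro. They came from 134 tested genes of the 5 other lists, and their shares were near or below those of all genes. Ccnd3, the gene of cyclin D3, which acts in G1, fell by 0.36 on the log2 scale with Dex, from 449 ± 10.3 to 349.9 ± 20.5 CPM (SD, n = 3, edgeR adjusted p = 0.00437). It was 1 of 22 tested G1 genes to pass there. Gadd45b, a stress-induced gene, fell from 41.6 ± 11.7 to 22.3 ± 3.81 CPM with Dex (edgeR adjusted p = 0.0467). That call was lost in 12 of 18 alternatives, among them leaving out any Dex, TGF-β1 or combined library or control replicates 1 or 3 (edgeR adjusted p from 0.0528 to 0.178). Brca2, a gene of recombination repair, rose with Dex from 21.1 ± 3.49 to 40.8 ± 4.55 CPM (0.96 ± 0.18, edgeR adjusted p = 0.0169), a call lost without control replicates 2 or 3 or Dex replicate 1 (edgeR adjusted p from 0.0606 to 0.0891).

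With TGF-β1, Rfc3, a subunit of the complex that loads Pcna, fell from 125 ± 4.80 to 66.3 ± 2.64 CPM (-0.91 ± 0.16, edgeR adjusted p = 0.00687), and with both agents to 59.1 ± 15.4 CPM (-1.07 ± 0.16, edgeR adjusted p = 0.00133). It was the only one of 35 further replication genes to pass with TGF-β1, and with both agents Rpa3, a subunit of the protein that binds single-stranded DNA, passed beside it (-0.79 ± 0.18, edgeR adjusted p = 0.0173). Trp53inp1, a p53-induced antiproliferative gene, rose with TGF-β1 from 23.1 ± 1.01 to 47.3 ± 1.71 CPM (1.03 ± 0.11, edgeR adjusted p = 0.000133) and with both agents to 40.2 ± 3.63 CPM (edgeR adjusted p = 0.000643). Its difference from Dex alone was 0.82 ± 0.11 (edgeR adjusted p = 0.00124).

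With both agents against control, Ccnd2, the gene of cyclin D2, rose by 0.33 ± 0.09 (edgeR adjusted p = 0.0367), Brca2 by 0.87 ± 0.18 (edgeR adjusted p = 0.0117) and Prc1, a midzone spindle gene, by 0.56 ± 0.15 (edgeR adjusted p = 0.0499). Leaving out single libraries ended several of these calls. That of Ccnd2 was lost without control replicates 2 or 3, Dex replicate 3 or combined replicates 1 or 3, and that of Brca2 without control replicate 3. That of Prc1 was lost without any control, Dex or combined library or TGF-β1 replicate 1, and that of Rpa3 without control or combined replicates 1 or 2. Against Dex alone Ccnd2 rose by 0.43 ± 0.09 (edgeR adjusted p = 0.0172) and Rfc3 stood at -0.76 ± 0.16 (edgeR adjusted p = 0.0268), calls both lost without Dex replicates 2 or 3 or combined replicates 1 or 3. Ccnd3 with Dex, Rfc3 with TGF-β1 and with both against control, and Trp53inp1 in its 3 calls passed in all 18 alternatives. Against TGF-β1 alone and in the interaction 0 genes of these 5 lists passed in edgeR. The calls given above were all those among the 134 genes. Of all genes 1.83% passed with Dex, 3.29% with TGF-β1 and 6.25% with both against control, and 2.62% with both against Dex. Cdkn1a was at -0.25 ± 0.07 with Dex and 0.18 ± 0.07 with TGF-β1, and Myc at 0.17 ± 0.08 and 0.04 ± 0.08, neither past the threshold.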

How the data were processed

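RNA was measured in 31 libraries by full-length cDNA sequencing (SMART-Seq2), which keeps no strand. The authors deposited 3 tables of whole-number counts per gene symbol, which their processing notes tie to RSEM 1.3.3 on mm10. The aligner and any rounding are not given in the sources used here. Groups came from the labels. Each table was fitted with edgeR 4.0.16 (R 4.3.3) after filtering on low counts, with TMM scaling, the quasi-likelihood test and Benjamini-Hochberg adjustment over all genes tested (threshold 0.05). The in vitro groups shared 1 fit. CPM used the scaled library sizes, and a count of 0 was given a limit of 3 counts. Marker sums were compared by exact permutation. The scripts were tested on simulated data. Alternatives were DESeq2 1.42.0, other filters and scalings, a replicate block, each library left out, a myeloid covariate and compared groups alone. The members and gene lists were chosen with earlier results of these data known. Any member could be named. From other lists, Cdkn1a, Cdkn1b, Ccnd2, Ccnd3, Myc and E2f1 and the called genes with the smallest p were eligible. The annotation was GENCODE on GRCm38, and promoters came from RefSeq.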

Additional observations from a re-analysis of the deposited data

Results flagged for a closer look

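In groups of 4 to 10 libraries, 10 of 200 groups of values held 1 library far from the others, where chance gives about 1 in 20. In the Cyp11a1 experiment, Mki67 was at 9.95 CPM in WT replicate 1, with the other WT libraries at 16.0 to 17.2 CPM. Ccne2 was at 7.34 CPM in cKO replicate 4, with the others at 9.31 to 10.2 CPM. In GR cKO replicate 2, Tk1 was at 35.8 CPM (others 12.8 to 16.0), Cdc6 at 7.92 CPM (others 1.06 to 2.19) and Uhrf1 at 27.5 CPM (others 8.69 to 11.0). Summed neutrophil markers were at 14.6 CPM in Cyp11a1 WT replicate 4 (others 2.32 to 3.83), 15.8 CPM in Cyp11a1 cKO replicate 6 (others 3.76 to 5.66) and 47.5 CPM in GR cKO replicate 2 (others 65.7 to 66.3). Summed B and plasma cell markers were at 33.1 CPM in Cyp11a1 cKO replicate 2 (others 11.1 to 16.3). NK and CD8 T cell markers summed to 330.0 CPM in Cyp11a1 WT replicate 3 (others 77.4 to 112). The cause of these values was not tested.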

How the results depend on the processing

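The count of 0 members called held in every alternative except 2. Bub1 passed for TGF-β1 without control replicate 2, giving 0 to 1 called G2/M genes over the libraries left out, and Birc5 made 1 call for both agents against control with the replicate block (edgeR adjusted p = 0.0166). Deviations of same-numbered libraries from their group means correlated at -0.23 to 0.11, so the replicate numbers showed no strong pairing. In vitro the median was 0.025 for the same number (-0.025 to 0.077) and -0.014 for different numbers (-0.078 to 0.044). Whether the numbers mark shared cultures was not tested. The block also ended the call of Ccnd2 (edgeR adjusted p = 0.0541). The cause of the changes below was not tested. Genes called among all for Cyp11a1 numbered 33 with no filter, 63 in DESeq2, 1 with the block and 6 without WT replicates 1 and 4, which were picked for their low sums of these genes. For GR they numbered 3 in DESeq2 and 1 without the 4 libraries above 20000 CPM of myeloid markers. For both agents against TGF-β1 they numbered 94 in DESeq2 and 22 with these groups alone, and for the interaction 4 with no filter, 6 in DESeq2 and 2 with the block. With 1 library left out the ranges were 9 to 22 (Cyp11a1), 0 to 1 (GR), 78 to 180 (Dex), 219 to 326 (TGF-β1), 425 to 641 (both), 24 to 57 (both against TGF-β1), 152 to 266 (both against Dex) and 0 to 1 (interaction). With the myeloid covariate the G2/M median was 0.62 for Cyp11a1, and for GR the S phase median was -0.15 and Ccnb1 0.18. Leaving out libraries moved the G2/M medians from -0.12 to 0.0234 (TGF-β1), 0.0371 to 0.16 (both) and -0.0112 to 0.15 (interaction), and the S phase median for both against Dex from -0.0868 to 0.0395. For Cyp11a1 it moved the S phase median from 0.06 to 0.34, the G2/M median from 0.03 to 0.34, Mcm5 from -0.0235 to 0.31, Ccnb1 from -0.16 to 0.29 and Cdc20 from -0.0398 to 0.34. For GR the S phase median ran from -1.33 to -0.77 and the G2/M median from -2.10 to -0.97. Reversed for Cyp11a1 were Ccnb1 with T cell scaling (-0.00753) and, without WT replicates 1 and 4, Dut (-0.0707), Birc5 (-0.0453), Top2a (-0.0558), Mcm5 (-0.24), Pcna (-0.10), Ccne1 (-0.0184), Ccnb1 (-0.34) and Cdc20 (-0.20). Marker differences, log2 cKO minus WT, ran over the libraries left out from -0.0123 to 0.0612 (T cell), 0.55 to 0.74 (myeloid), -0.0328 to 0.85 (neutrophil), -0.61 to -0.30 (B and plasma) and 1.03 to 1.73 (NK and CD8) for Cyp11a1, and 0.46 to 0.61 for neural markers in GR. Depth limits the low members: 22 to 40 of the 40 had 20 counts or more in a GR library.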
